A study of Mus musculus with 16 samples.

Results

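The genes described here code for the complement and coagulation factors that the liver makes, together with the inhibitors and the fibrinolytic enzymes that circulate with them in plasma. They were taken from the table of 24010 entries by their gene symbols, and 41 of the 41 listed symbols were found. All 41 passed the filter for testing, which asked for 0.5 RPKM or more in 4 libraries or more of the 16. RPKM, reads per kilobase of gene length and per M reads of the library (M, 1e+06), scales the reads of a gene to its length and to the depth of the library.

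The livers came from C57BL/6 mice that had received an enhanced episomal vector (EEV) plasmid through a hydrodynamic injection into the tail vein, a rapid injection of a large volume that carries plasmid into liver cells. There were 4 groups of 4 animals. Old MANF mice were 23 months old and received the plasmid for human MANF, a protein of the endoplasmic reticulum that is also secreted. Old control mice were of the same age and received the empty plasmid. Young MANF and young control mice were 5 months old and received the MANF plasmid and the empty plasmid. All 16 livers were analysed 5 weeks after the injection, so every group, controls included, carried an injected plasmid, and no uninjected liver was analysed here.

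Coagulation runs through a chain of proteases that ends with thrombin, which turns soluble fibrinogen into a fibrin clot, and plasmin later dissolves that clot. Complement is started by antibodies, by lectins that bind microbial sugars, or on foreign surfaces directly, and it converges on C3 and then on the membrane attack complex, a pore assembled from C5b, C6, C7, C8 and C9. Hepatocytes are the main source of most of these plasma proteins, and fibrinogen and C3 are acute phase proteins, whose production in the liver rises under interleukin-6.

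The libraries held 18.31 to 26.12 M reads by the numbers that the RPKM had been divided by, and of the reads assigned to genes the 41 genes held 4.19 to 7.499%. Their own reads ranged from 44 in the library where Cfb was lowest to 223407 in the library where C3 was highest. The labelled tissue was checked with hepatocyte markers, of which 15 of 15 were in the table and none was at 0 in all libraries, and albumin (Alb) was read at 20091 to 34329 RPKM. The mouse Manf gene averaged 14.5 ± 3.61 RPKM in old MANF, 6.77 ± 1.08 RPKM in old control, 11.4 ± 2.70 RPKM in young MANF and 10.1 ± 2.86 RPKM in young control livers (SD, n = 4), and the human sequence of the plasmid was not analysed here. Old control replicate 4, old MANF replicate 3 and young MANF replicate 3 stood apart from the other 3 libraries of their groups in many of the 41 genes. In old control replicate 4, 34 of the 41 genes lay above all 3 others and 1 lay below. In old MANF replicate 3 these numbers were 21 above and 11 below, and in young MANF replicate 3 they were 11 above and 24 below. The same count over all genes tested was not made. The root mean square of the log2 deviation from the other 3 libraries was taken over both sets of genes. In old control replicate 4 it was 0.437 over the 41 genes and 0.553 over all genes tested. It was 0.491 and 0.369 in old MANF replicate 3, and 0.408 and 0.472 in young MANF replicate 3. In bulk tissue, fewer cells of a type and less RNA per cell cannot be told apart.

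By their mean over the 16 libraries, per kilobase of gene length, the 3 fibrinogen chains and C3 led the set. Fgg, Fga and Fgb, which code for the gamma, alpha and beta chains, averaged 1158, 1091 and 812 RPKM, and C3, the protein on which every complement route converges, averaged 942 RPKM. Vtn (vitronectin, an adhesive protein that also blocks the assembly of the membrane attack complex), Kng1 (kininogen, the precursor of bradykinin) and Plg (plasminogen, the precursor of plasmin) followed at 732, 621 and 558 RPKM. The vitamin K dependent factors were spread over a wide range, with prothrombin (F2) at 248 RPKM, protein C (Proc, an anticoagulant protease) at 205, factor X (F10) at 96.8, factor IX (F9) at 65.2, factor VII (F7) at 35.7 and protein S (Pros1, the cofactor of protein C) at 14.1 RPKM. At the low end stood C2, the protease of the classical C3 convertase, at 2.72 to 5.14 RPKM, and Cfb, factor B of the alternative pathway, at 0.805 to 1.95 RPKM. For most of the genes the length behind the RPKM equals that of all annotated exons together, which for Serpinc1 is 8546 bases, so levels compared between genes depend on the annotation.

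**Figure D1:**
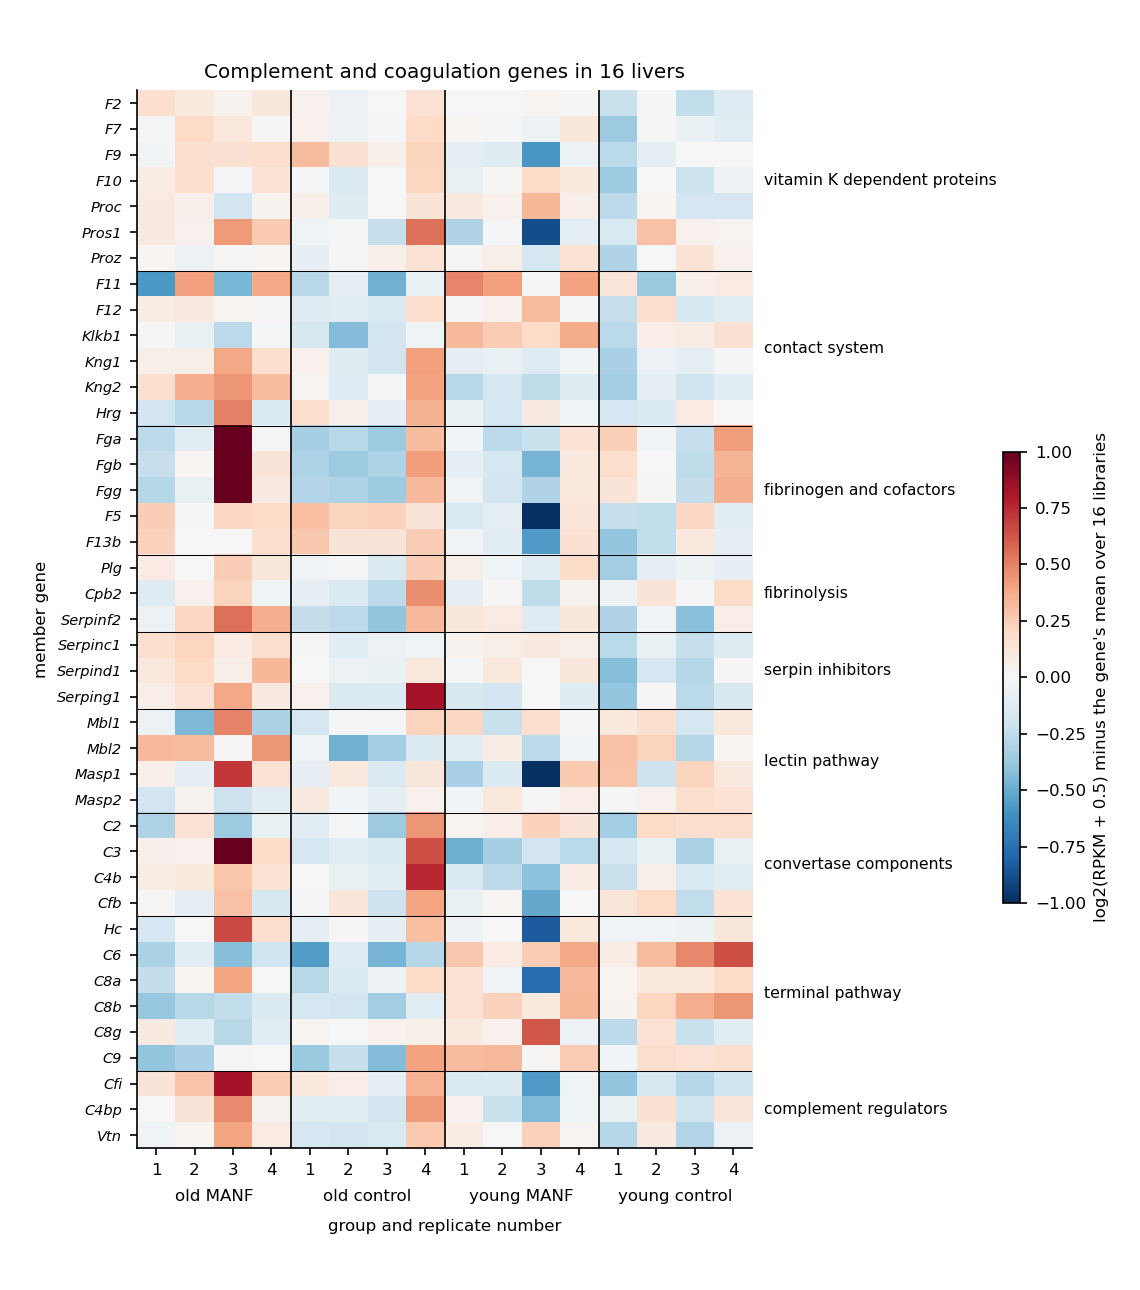
Heat map of log2(RPKM + 0.5) of the 41 genes (rows, by role) in the 16 livers (columns, by group and replicate number), each gene centred on its mean over all libraries, with red above and blue below that mean on a scale that ends at 1 log2 unit. The columns of old MANF replicate 3 and old control replicate 4 are red in most rows, and C6 and C8b are blue in every old liver.

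The spread between livers of 1 group differed widely between genes. Serpinc1, which codes for antithrombin, the main inhibitor of thrombin, had a coefficient of variation of 1.67 to 6.40% within the 4 groups. Proz, the vitamin K dependent cofactor of an inhibitor of factor Xa, had 2.64 to 12.6%. C3 had 54.7% in old MANF and 30.6% in old control livers, against 8.51% in young MANF and 7.75% in young control livers. F11, the contact factor that activates factor IX, had 35.9% in old MANF livers, where its 4 values were 17.4, 34.8, 18.9 and 34.0 RPKM.

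Several of the genes lie next to each other. In GRCm38, with positions from GENCODE M21, Fgg (chr3:83007724-83015049), Fga (chr3:83026076-83033627) and Fgb (chr3:83040141-83049863) form a cluster on chromosome 3, with Fgb on the minus strand. F7, F10 and Proz lie no more than 25.1 kb apart on chromosome 8, F11 and Klkb1 are 4.66 kb apart on the same chromosome, Kng1 and Kng2 are 28.4 kb apart on chromosome 16, and C8a and C8b are 11.1 kb apart on chromosome 4. For some of them the reads may be divided with an overlapping or similar gene. Of the exon bases of Cfb, 79.5% are also exons of Gm20547, a gene on the same strand, as are 42.8% of those of C2, and 43.2% of those of Klkb1 are exons of Gm45753. Of the stretches of 50 bases in C4b transcripts, 34.6% also occur in C4a, and of those in Kng1 and Kng2, 17.2% and 19.4% occur in the other kininogen gene. Serpinc1 shares 34.4% of its exon bases with Zbtb37 and Masp2 shares 54.9% with Tardbp on the opposite strand. The library kit keeps strand, but how strand was used in counting is not given in the sources used here. Zbtb37 was read at 0.0961 to 0.506 RPKM.

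The fibrinogen chains and C3 were set apart by 2 old livers. Fga was read at 883, 979.7, 2129 and 1045 RPKM in old MANF, 840.0, 873, 821 and 1308 RPKM in old control, 1039, 881, 905 and 1162 RPKM in young MANF, and 1245, 1034, 901 and 1414 RPKM in young control livers. C3 was read at 923, 915, 2372 and 1008 RPKM in old MANF, 789, 823, 809 and 1390.1 RPKM in old control, 635, 705, 779 and 736 RPKM in young MANF, and 789.5, 844, 713 and 843 RPKM in young control livers. In both old groups 1 liver was far above the other 3, and these were replicate 3 of the MANF group and replicate 4 of the control group for each of these genes. The chains kept their proportions in all livers, including these, with Fgb at 0.629 to 0.819 of Fga and Fgg at 0.981 to 1.14 of Fga by RPKM.

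The same 2 livers differed from each other in some acute phase genes outside the set, whereas other such genes were high in both. Saa1, a serum amyloid gene, was at 44.1 RPKM in old MANF replicate 3, within the 37.2 to 56.4 RPKM of the other 3 old MANF livers, and at 461 RPKM in old control replicate 4, against 23.5 to 34.2 RPKM in the other 3 old controls. Orm2, an orosomucoid gene, was high in both, at 235 RPKM in old MANF replicate 3, against 17.9 to 21.6 RPKM in the others of its group, and 378 RPKM in old control replicate 4, against 15.5 to 30.9 RPKM. Lcn2, which codes for an iron-sequestering protein of the acute phase, was also high in both. It was at 37.2 RPKM in old MANF replicate 3, against 6.53 to 11.3 RPKM, and at 141 RPKM in old control replicate 4, against 3.97 to 8.56 RPKM. Hp, another acute phase gene, was at 2118 RPKM, against 1230 to 1621 RPKM, and at 3367 RPKM, against 1246 to 1394 RPKM, in the same order. Serping1, the C1 inhibitor, was at 511 RPKM in old control replicate 4, against 259 to 296 RPKM in the other 3 old controls, but at 373 RPKM in old MANF replicate 3, against 301 to 317 RPKM. Among young livers, Saa1 was at 8.03 to 24.6 RPKM in MANF and at 152, 220, 25.2 and 166 RPKM in control mice, while fibrinogen overlapped between these 2 groups.

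**Figure D2:**
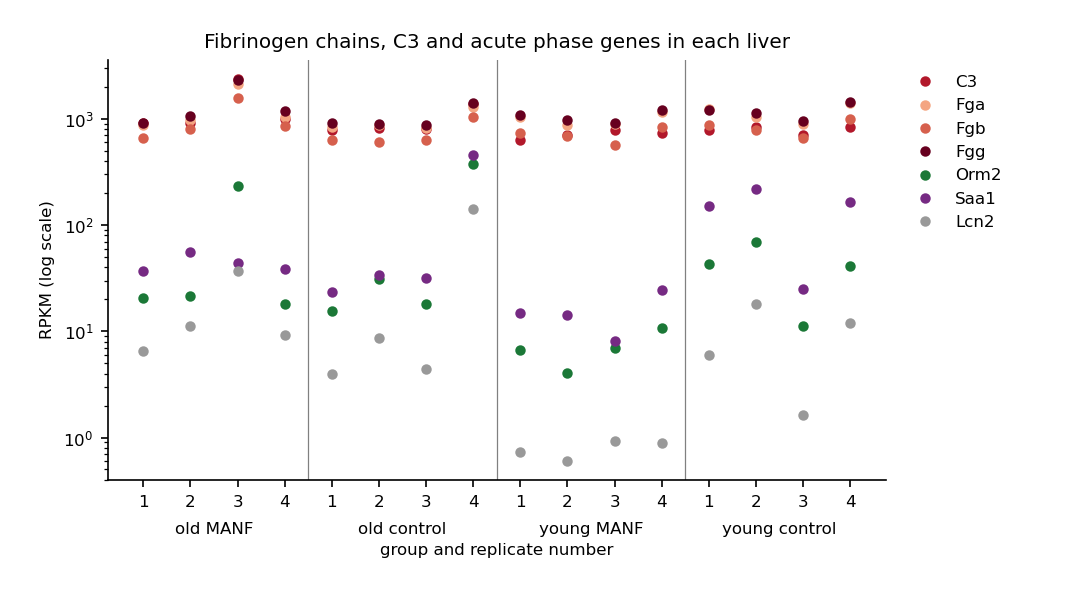
RPKM on a log scale of C3, the 3 fibrinogen chains and the acute phase genes Orm2, Saa1 and Lcn2 in each of the 16 livers, by group and replicate number. Old MANF replicate 3 has the highest C3 at 2372 RPKM with Saa1 at 44.1 RPKM, whereas in old control replicate 4 both C3 (1390.1 RPKM) and Saa1 (461 RPKM) are above the other old controls.

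The bases before the start of these genes are given because the genes moved together in single livers, and the same stretch is given for C6 and C8b, the genes called in both comparisons of age. Promoter sequence from RefSeq (GRCm38.p6) was at hand for 32 of the 41 genes, and the entries for C2, C4b, Cfb, Cfi, Kng1, Masp1, Plg, Proc and Serping1 were not used here. Each line holds the 250 bases before the RefSeq transcription start, 5' to 3' on the strand of the gene, in lower case, with motif matches in capitals. The motifs, searched on both strands, were GTTAAT for HNF1, TTGCNNAA for C/EBP factors, CTGGGAA for the interleukin-6 response, TTCNNNGAA for STAT factors and CAAAGTNCA for HNF4. The windows are chr3:83025903-83026152 (plus strand), chr3:83049864-83050113 (minus), chr3:83007474-83007723 (plus), chr17:57228137-57228386 (minus), chr15:4726960-4727209 (plus) and chr4:104766067-104766316 (plus). Those of Fga and C6 reach into the first bases of the gene as GENCODE M21 places it.
Fga: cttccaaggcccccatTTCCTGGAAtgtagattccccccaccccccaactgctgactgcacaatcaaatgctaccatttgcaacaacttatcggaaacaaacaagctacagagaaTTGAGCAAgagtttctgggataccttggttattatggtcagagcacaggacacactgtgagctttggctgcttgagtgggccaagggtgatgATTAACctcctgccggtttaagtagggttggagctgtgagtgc
Fgb: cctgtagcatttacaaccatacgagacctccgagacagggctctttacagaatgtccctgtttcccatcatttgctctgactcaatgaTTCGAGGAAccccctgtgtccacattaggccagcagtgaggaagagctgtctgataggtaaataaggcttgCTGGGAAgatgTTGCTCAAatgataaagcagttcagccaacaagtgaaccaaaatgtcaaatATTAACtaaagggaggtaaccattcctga
Fgg: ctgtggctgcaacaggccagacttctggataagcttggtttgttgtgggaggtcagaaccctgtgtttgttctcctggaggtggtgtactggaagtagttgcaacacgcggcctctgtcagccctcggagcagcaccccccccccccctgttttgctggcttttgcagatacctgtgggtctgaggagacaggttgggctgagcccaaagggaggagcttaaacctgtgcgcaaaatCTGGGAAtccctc
C3: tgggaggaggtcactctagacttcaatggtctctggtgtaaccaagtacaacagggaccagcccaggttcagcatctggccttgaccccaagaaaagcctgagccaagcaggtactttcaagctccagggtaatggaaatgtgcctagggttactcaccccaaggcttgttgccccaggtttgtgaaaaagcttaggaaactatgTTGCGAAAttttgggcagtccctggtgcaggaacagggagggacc
C6: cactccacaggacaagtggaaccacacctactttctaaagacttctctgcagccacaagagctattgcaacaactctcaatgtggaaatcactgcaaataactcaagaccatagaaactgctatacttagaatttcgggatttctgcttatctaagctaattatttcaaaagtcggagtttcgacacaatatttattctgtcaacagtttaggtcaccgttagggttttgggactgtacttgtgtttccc
C8b: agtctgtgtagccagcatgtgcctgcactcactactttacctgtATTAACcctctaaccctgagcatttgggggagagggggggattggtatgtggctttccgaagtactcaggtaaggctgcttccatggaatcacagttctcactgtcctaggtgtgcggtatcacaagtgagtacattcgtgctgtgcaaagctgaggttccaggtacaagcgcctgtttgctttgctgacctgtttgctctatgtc

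Fgb held 4 of the 5 motifs, with HNF1 starting 29 bases, C/EBP 80, the interleukin-6 motif 91 and STAT 162 bases before the start. Fga held HNF1 at 43, C/EBP at 135 and STAT at 234 bases, Fgg the interleukin-6 motif at 13 bases, and C3 C/EBP at 45 bases. C8b held HNF1 at 206 bases, and none of these letters were found in the window of C6. Over the 32 windows, HNF1 was found in 9 (28.1%), against 6.43% of 32851 promoters of all genes in windows of the same length, and C/EBP in 9 (28.1%), against 9.56%. STAT was found in 6 (18.8%), against 7.02%, the interleukin-6 motif in 4 (12.5%), against 9.10%, and HNF4 in 1, that of F9, against 1.19%. In Masp2 and F9 the interleukin-6 match lies within the STAT match. These matches describe the letters of the sequence, not sites bound by a factor in these livers.

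Young MANF replicate 3 stood apart in another way, with some of the long genes low and some of the short genes high. F5, factor V, the cofactor of factor Xa, was at 31.2 RPKM there, against 57.3 to 69.4 RPKM in the other 3 young MANF livers. Hc, which codes for C5, was at 82.1 RPKM, against 141 to 158 RPKM, and C8a was at 106 RPKM, against 175 to 224 RPKM. C8g, the gamma subunit of C8 and 1 of the shorter genes, was at 242 RPKM, against 151 to 168 RPKM. Other genes did not follow their length, as the longest, Serpinc1, was at 1.03-fold of the other 3 livers and the short Mbl2 at 0.847-fold. Over the 41 genes, the log2 deviation of this library from the other 3 had a Spearman correlation of -0.36 with gene length, and over all tested genes -0.43. Young MANF replicate 4 had correlations of 0.41 and 0.43 over the same genes. These are descriptions across genes within 1 library.

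**Figure D3:**
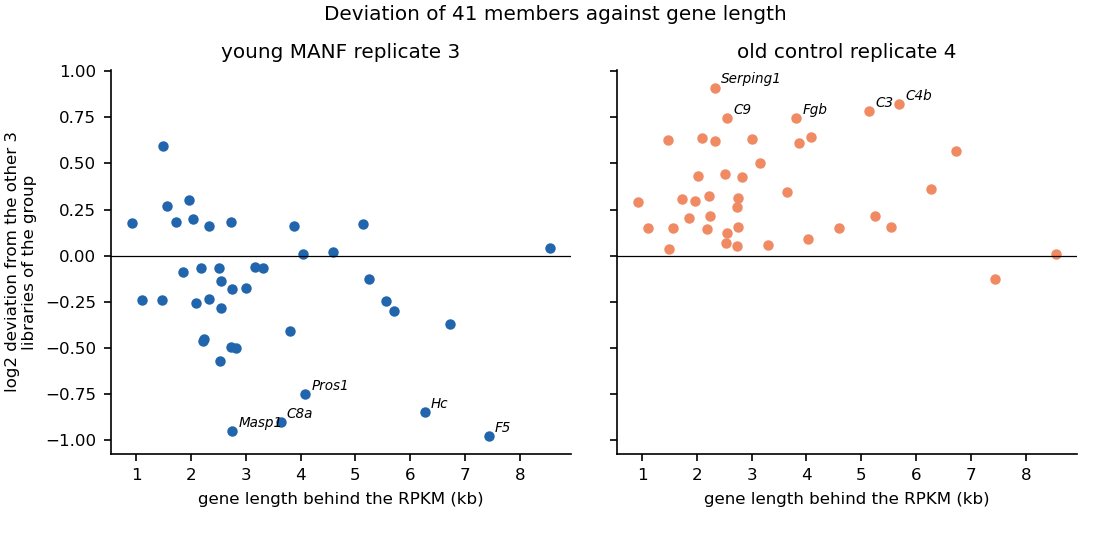
Log2 deviation of each of the 41 genes from the mean of the other 3 libraries of the group, against the gene length behind the RPKM in kilobases, for young MANF replicate 3 (left) and old control replicate 4 (right). In young MANF replicate 3, F5 and Hc are low and C8g is high, with a Spearman correlation of -0.36, whereas in old control replicate 4 most genes of any length lie above 0.

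The first comparison asked what age did under the empty plasmid. C6 and C8b were lower in old than in young control livers, and the other 39 genes did not pass the test. In limma on log2(RPKM + 0.5), with Benjamini-Hochberg adjustment over 10677 genes and calls at an adjusted p below 0.05, 2 of the 41 genes were called, against 1.25% of all genes tested in either direction, 0.899% higher and 0.347% lower. The median log2 difference of the 41 genes was 0.04, against 0.05 over all genes tested.

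C6 (chr15:4727175-4814967, plus strand), which joins C5b as the first step of pore assembly, was read at 43.3, 58.7, 46.4 and 52.3 RPKM in old control livers and at 67.3, 79.9, 89.5 and 100.3 RPKM in young control livers. Every old control value was below every young control value. The means were 50.2 ± 6.79 RPKM in old and 84.3 ± 14.04 RPKM in young control mice (SD, n = 4), a log2 difference of -0.74 (SE 0.13, adjusted p = 0.00992), and the call held in all 28 other settings, with adjusted p of at most 0.0483. C8b (chr4:104766317-104804548, plus strand), the beta chain of C8, which anchors C8 to the growing complex, was read at 99.1, 98.6, 88.2 and 103 RPKM in old control livers and at 115, 130.5, 145 and 153 RPKM in young control livers. These groups did not overlap either. The log2 difference was -0.47 (SE 0.10, adjusted p = 0.0305), and leaving out 1 of the young controls 2, 3 and 4 or of the old controls 1 and 3 ended the call, with log2 differences of -0.49 to -0.41 and adjusted p of at most 0.111. Hepatocyte scaling ended it as well, at a larger difference of -0.60 (adjusted p = 0.0811), as did a fit on the 2 control groups alone (adjusted p = 0.0707). C8a, the alpha chain and the neighbour of C8b, had 172 ± 24.0 RPKM in old and 193 ± 9.07 RPKM in young control livers, a log2 difference of -0.17 (adjusted p = 0.738).

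The 3 genes with the next smallest p were higher in old control livers and were not called. F13b, the carrier subunit of the enzyme that cross-links fibrin, was read at 71.4, 64.9, 64.8 and 70.4 RPKM in old and at 45.3, 49.99, 63.9 and 55.2 RPKM in young control livers, a log2 difference of 0.35 (adjusted p = 0.236). F2 was read at 254, 237, 248 and 273 RPKM in old and at 212, 244, 209 and 226 RPKM in young control livers, a log2 difference of 0.18 (adjusted p = 0.252). Cfi, factor I, the protease that inactivates C3b and C4b, was read at 274, 268, 239 and 325 RPKM in old and at 194, 228, 209.5 and 222 RPKM in young control livers, a log2 difference of 0.37 (adjusted p = 0.262). The groups did not overlap for Cfi, F13b and F9, which were higher (background 8.12% of genes), and for C8b and C6, which were lower (background 2.34%).

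The second comparison asked the same of age under the MANF plasmid, and it shares no liver with the first. C6 and C8b were again lower in old livers, and Kng2 and Cfi were higher, so that 4 of the 41 genes were called. This is near the background of 6.57% of all genes tested, 5.85% higher and 0.721% lower. The median log2 difference of the 41 genes was 0.12, against 0.18 over all genes tested. With each library scaled to its median, the median of all genes was -0.04 and that of the 41 genes -0.10, and 93 genes were called higher and 217 lower, in place of 625 higher and 77 lower. Under that scaling 5 of the 41 genes were called, all lower, namely C9, C8b, C6, Masp2 and Klkb1. Under quantile scaling 5 were called as well, namely Cfi and Kng2 higher and C8b, C6 and Klkb1 lower.

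C6 was read at 51.2, 59.1, 47.6 and 55.6 RPKM in old MANF livers and at 77.5, 67.7, 76.4 and 83.6 RPKM in young MANF livers, which gives a log2 difference of -0.51 (SE 0.13, adjusted p = 0.0313). C8b was read at 86.0, 92.5, 94.5 and 102 RPKM in old MANF livers and at 124, 132, 120.2 and 142 RPKM in young MANF livers, which gives a log2 difference of -0.46 (SE 0.10, adjusted p = 0.0179). For both genes every old MANF liver was below every young MANF liver. Leaving out single libraries left C8b called each time (adjusted p of at most 0.0473). C6 lost its call when either of the young MANF livers 1 and 3 or any of the old MANF livers 1, 3 and 4 was left out (adjusted p of at most 0.0698). Scaling each library to its 15 hepatocyte markers ended both calls, with log2 differences of -0.49 for C6 (adjusted p = 0.113) and -0.44 for C8b (adjusted p = 0.1003).

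Kng2 (chr16:22985854-23029482, minus strand), the second kininogen gene of the mouse, was read at 122, 141, 148 and 137 RPKM in old MANF livers and at 90.3, 97.3, 91.5 and 100.4 RPKM in young MANF livers. The log2 difference was 0.53 (SE 0.11, adjusted p = 0.0161). Every old MANF value was above every young MANF value. The call held in all 16 runs that left out 1 library and was lost under median scaling, where the difference was 0.30 (adjusted p = 0.102), and under hepatocyte scaling, where it was 0.54 (adjusted p = 0.0940). Cfi (chr3:129835884-129875332, plus strand) was read at 279, 312, 456 and 305 RPKM in old MANF livers and at 231, 232, 172 and 248 RPKM in young MANF livers. The log2 difference was 0.60 (SE 0.15, adjusted p = 0.0337). The groups did not overlap, but the highest old value came from replicate 3 and the lowest young value from replicate 3, both libraries that stood apart. Without any 1 of the old MANF livers 2, 3 and 4 or of the young MANF livers 1, 2 and 3, Cfi was not called, with adjusted p of at most 0.0818, and neither was it under median scaling, where the difference was 0.37 (adjusted p = 0.129), or under hepatocyte scaling, where it was 0.62 (adjusted p = 0.105). The replicate block (adjusted p = 0.0519) and a fit on the 2 MANF groups alone (adjusted p = 0.0602) ended the call at the same difference.

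Klkb1, plasma prekallikrein, which releases bradykinin from kininogen, had the fifth smallest p. It was read at 17.6, 16.6, 14.5 and 17.2 RPKM in old MANF livers and at 21.9, 20.8, 19.9 and 22.6 RPKM in young MANF livers, with no overlap and a log2 difference of -0.37 (SE 0.11, adjusted p = 0.0509). It was called in 8 of 28 other settings, among them median scaling and the runs that omit young control 1 or the old controls 2 or 4, with adjusted p of 0.0175 to 0.0471 where it was called. C3 averaged 1305 ± 713 RPKM in old MANF and 714 ± 60.8 RPKM in young MANF livers, or 0.74 on the log2 scale (SE 0.25, adjusted p = 0.0723). Without old MANF replicate 3 the difference was 0.41 (adjusted p = 0.126), without old control replicate 4, which enters only through the shared estimate of the spread, it was 0.74 (adjusted p = 0.0373), and without both it was 0.41 (adjusted p = 0.0106). All 4 old MANF livers had more C3 RNA than any young MANF liver, 1 of 9 genes of the set that were higher without overlap, at a background of 22.3%. The others were Kng1, Kng2, Serping1, F2, Cfi, C4b, F9 and Pros1. The 4 genes that were lower without overlap were C9, C8b, C6 and Klkb1, at a background of 1.36%.

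**Figure D4:**
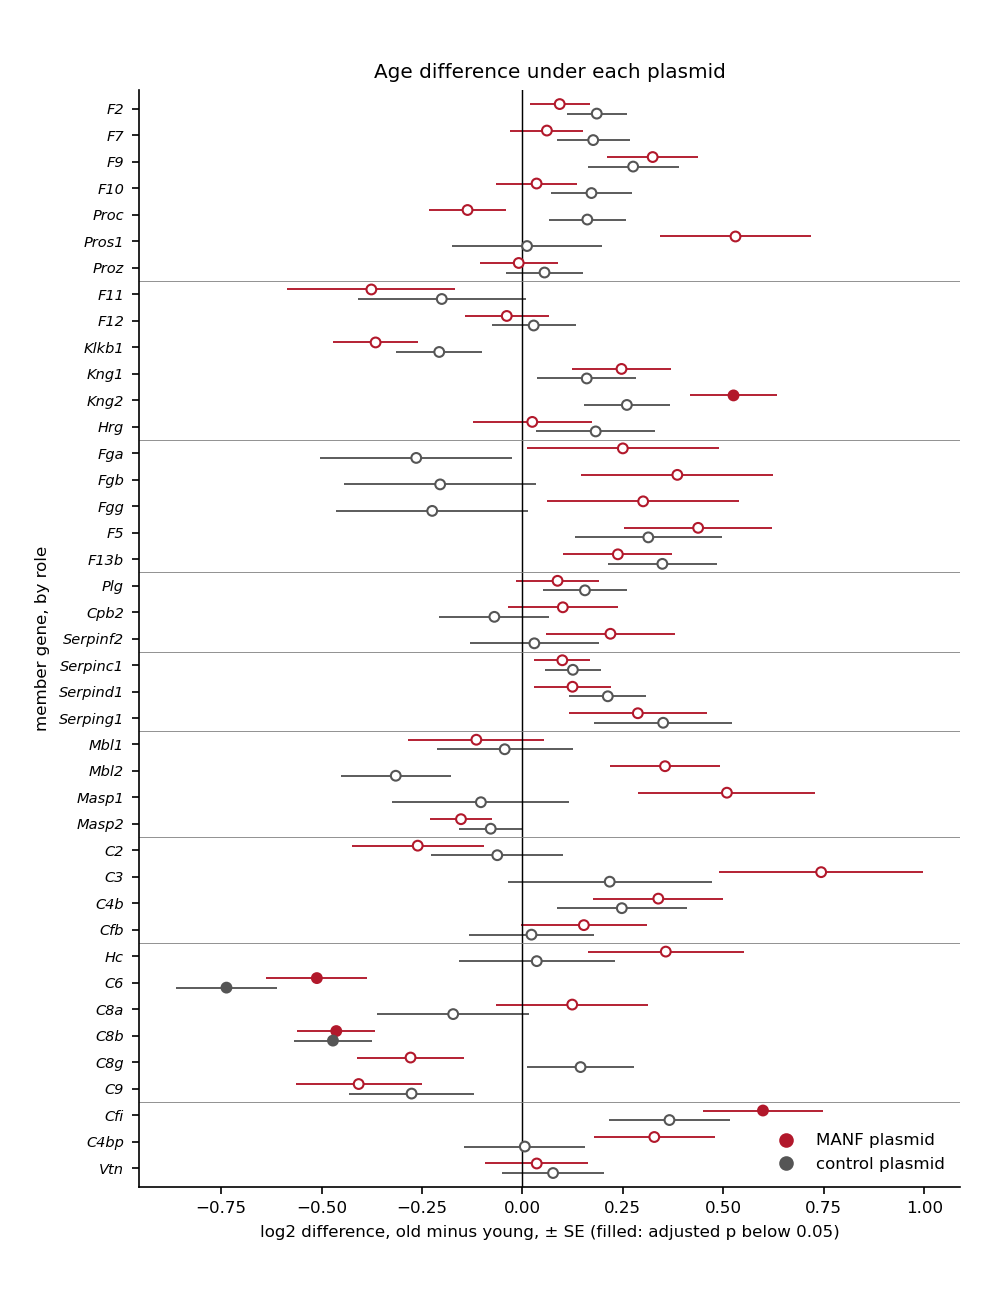
Log2 difference, old minus young, with its SE, for each of the 41 genes under the MANF plasmid (red) and under the control plasmid (grey), by role, with called genes filled. C6 and C8b are the genes with filled points on the left under both plasmids, and the fibrinogen chains lie on opposite sides of 0 under the 2 plasmids without a call.

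Seen by role, the genes called with age were in the terminal pathway, the contact system and the complement regulators. Roles were not tested against each other. The background in MANF mice was 5.85% of all genes tested called higher and 0.721% called lower. In control mice it was 0.899% higher and 0.347% lower. Of the 6 genes of the terminal pathway, 2 fell with age under the MANF plasmid (median log2 -0.34) and 2 under the control plasmid (median -0.22), and these were C6 and C8b both times. C9, which forms the wall of the pore, had log2 differences of -0.41 in MANF mice (adjusted p = 0.0942) and -0.28 in control mice, and Hc had 0.36 and 0.04. In MANF mice C9 was called in 4 of 28 other settings, median scaling among them. Of the 6 contact system genes, Kng2 rose with age under the MANF plasmid and 0 were called under the control plasmid. None of the 7 vitamin K dependent factors, 3 fibrinolysis genes, 3 serpin inhibitors, 4 lectin pathway genes or 4 convertase components was called in either comparison, although in MANF mice median scaling called Masp2 lower, Masp1 was called without young MANF replicate 4, and C3, C4b and Pros1 were called without old control replicate 4. With an unadjusted p below 0.05 there were 13 of the 41 genes in MANF mice, where 33.4% of all genes tested had one, and 9 in control mice, where 14.9% had one. The 3 fibrinogen chains had log2 differences of 0.25 to 0.39 in MANF mice and of -0.26 to -0.20 in control mice. Without old MANF replicate 3 and old control replicate 4, a run chosen after seeing the data, these became -0.03 to 0.13 and -0.42 to -0.38, and none was called. Over the set, 30 of 41 genes had the same direction in both comparisons, against 67.1% of all genes tested, and 2 of the 41 genes were called in both, as were 70 of all 10677 genes tested.

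Markers of other cell types were compared by age as well. Over all 10677 genes tested, 6635 had a log2 difference above 0 in control mice and 8434 in MANF mice. Of all genes tested, 0.899% were called higher in control mice and 5.85% in MANF mice. In control mice 12 of 12 tested Kupffer cell markers had a log2 difference above 0 (median 1.21, 0 called), and in MANF mice 12 of 12 (median 1.31, 0 called), and their summed level was 163 to 323 RPKM in old MANF, 139 to 769 RPKM in old control, 42.8 to 152 RPKM in young MANF and 77.5 to 188 RPKM in young control livers. The 769 RPKM of the Kupffer cell markers came from old control replicate 4, and the other 3 old controls were at 139 to 208 RPKM. Of 11 markers of sinusoidal endothelium, 11 were above 0 in both comparisons of age, with 0 called in MANF and 5 in control mice. Their summed level was 35.4 to 83.2 RPKM in old MANF, 53.7 to 74.2 RPKM in old control, 28.4 to 50.5 RPKM in young MANF and 25.6 to 33.7 RPKM in young control livers. Of 10 stellate cell markers, 10 were above 0 in MANF mice, with 5 called, and 5 in control mice, with 0 called. Their sum was 102 to 122 RPKM in old MANF, 67.5 to 100.5 RPKM in old control, 52.7 to 65.8 RPKM in young MANF and 63.3 to 100.4 RPKM in young control livers. With age, 2 of the 5 T and NK cell markers that were tested rose in MANF mice and 3 in control mice, and of the 7 such markers of monocyte derived macrophages, 2 rose in MANF mice and 0 in control mice. None of these markers was at 0 in all libraries, and of the 7 neutrophil markers Ly6g was. Of the 15 hepatocyte markers 0 were called in either comparison of age (median log2 -0.03 in MANF and 0.14 in control mice), and their sum was 46709 to 55888 RPKM in old MANF, 38099 to 52932 RPKM in old control, 43180 to 52014 RPKM in young MANF and 36698 to 41519 RPKM in young control livers. Their part in the differences of C6, C8b, Kng2 and Cfi was not tested. Calls fell over all genes tested under hepatocyte scaling, so the calls lost under it are no test of this. With age it left 10 genes called higher and 18 lower in control mice, in place of 96 and 37. In MANF mice it left 119 higher and 44 lower, in place of 625 and 77.

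**Figure D5:**
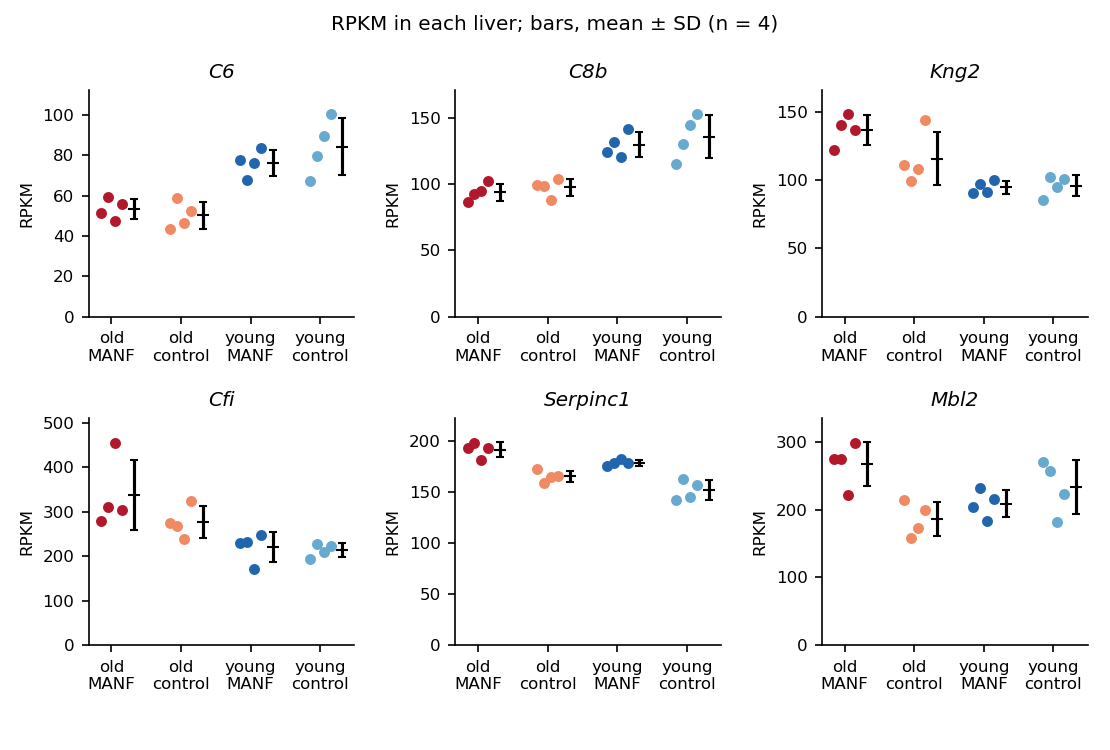
RPKM of C6, C8b, Kng2, Cfi, Serpinc1 and Mbl2 in each of the 16 livers (points), with the mean ± SD of each group (bars, n = 4), on axes that start at 0. For C6 and C8b all old livers lie below all young livers under the same plasmid, and for Serpinc1 all MANF livers lie above all control livers of the same age.

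The third comparison asked what the MANF plasmid did in young livers. In limma, 0 of the 41 genes were called, against a background of 0.0187% (2 of 10677 genes), 0.00937% higher and 0.00937% lower, and 0 with voom on the recovered reads. At an unadjusted p below 0.05 there were 6 of the 41 genes in limma and 5 with voom, all higher in MANF livers, and 14.9% of all genes tested in limma. The median log2 difference of the 41 genes was 0.01, against -0.10 over all genes tested. Serpinc1 was read at 175, 178, 182 and 178 RPKM in young MANF livers and at 142, 162, 145 and 157 RPKM in young control livers, a log2 difference of 0.24 (SE 0.07, adjusted p = 0.227). Proc was read at 217, 211, 258 and 213 RPKM in young MANF and at 171, 207, 182 and 181 RPKM in young control livers, a log2 difference of 0.28 (adjusted p = 0.248). In these 2 genes, and in F2 and Klkb1, every young MANF liver was above every young control liver, at a background of 2.29%. No gene of the set was lower without overlap, at a background of 6.59%.

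The other 3 genes with the smallest p in young mice were an inhibitor and 2 proteases. Serpind1, heparin cofactor II, a second inhibitor of thrombin, was read at 176, 191, 178 and 192 RPKM in young MANF and at 132, 158, 146 and 179 RPKM in young control livers, with overlap and a log2 difference of 0.27 (adjusted p = 0.258). Klkb1 was read at 21.9, 20.8, 19.9 and 22.6 RPKM in young MANF and at 14.3, 18.3, 18.4 and 19.4 RPKM in young control livers, a log2 difference of 0.28 (adjusted p = 0.278). F2 was read at 248, 248, 252 and 249 RPKM in young MANF and at 212, 244, 209 and 226 RPKM in young control livers, a log2 difference of 0.17 (adjusted p = 0.324). The young MANF values of F2 lay close together, and young control replicates 1 and 3 were the lowest of the 8. Without young MANF replicate 3 the log2 differences were 0.23 for Serpinc1, 0.21 for Proc, 0.28 for Serpind1, 0.31 for Klkb1 and 0.16 for F2, and none was called. The young control livers of this comparison are also those of the comparison of age in control mice.

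In old livers the MANF plasmid was again followed by 0 calls among the 41 genes in limma, against a background of 0.103%, 0.0749% higher and 0.0281% lower, and by 0 with voom. There were 4 genes with an unadjusted p below 0.05 by either method, all higher in MANF livers, and 9.70% of all genes tested in limma. The median log2 difference of the 41 genes was 0.10, against 0.03 over all genes tested. Mbl2 (chr19:30232942-30239687, plus strand), a mannose-binding lectin that starts the lectin pathway, was read at 276, 275, 222 and 299 RPKM in old MANF livers and at 214, 158, 173 and 200.1 RPKM in old control livers, a log2 difference of 0.52 (SE 0.14, adjusted p = 0.144). Every old MANF value was above every old control value. Mbl1, the other mannose-binding lectin of the mouse, was read at 135 ± 42.2 RPKM in old MANF and 139 ± 16.2 RPKM in old control livers. Without both old control replicate 4 and old MANF replicate 3, chosen after seeing the data, Mbl2 was called (log2 0.65, adjusted p = 0.0459).

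Serpinc1 was read at 192, 198, 181 and 193 RPKM in old MANF and at 172, 159, 164 and 166 RPKM in old control livers, a log2 difference of 0.21 (SE 0.07, adjusted p = 0.266). Serpinc1 and Mbl2 were the genes of the set that were higher without overlap, at a background of 3.5%, and none was lower without overlap, at a background of 1.84%. Serpinf2, alpha-2-antiplasmin, the inhibitor of plasmin, was read at 223, 268, 341 and 299.9 RPKM in old MANF and at 197, 193, 177 and 291 RPKM in old control livers, a log2 difference of 0.41 (adjusted p = 0.391). The highest value in each of these groups came from a library that stood apart. Kng2 was read at 122, 141, 148 and 137 RPKM in old MANF and at 111, 99.8, 108 and 144 RPKM in old control livers, a log2 difference of 0.25 (adjusted p = 0.451), and Serpind1 at 192, 205, 185 and 224 RPKM and at 178, 171, 169.7 and 191 RPKM in the same groups, a log2 difference of 0.18 (adjusted p = 0.597). Without young MANF replicate 3 and old control replicate 4, Serpinf2 and Kng2 were called, with log2 differences of 0.56 and 0.36 (adjusted p = 0.0460 and 0.0446). That run dropped the highest old control liver for both genes and kept old MANF replicate 3, the highest old MANF liver for both. Without old control replicate 4 and old MANF replicate 3, neither gene was called.

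Averaged over both ages, Serpinc1 (chr1:160978585-161005863, plus strand) rose under the MANF plasmid and was the 1 gene called of 41, against a background of 1.29%, 0.59% higher and 0.702% lower. Its log2 difference was 0.22 (SE 0.05, adjusted p = 0.0362), or 1.17-fold, and every MANF liver was above every control liver of its age. The call was lost in 16 of 27 other settings, with log2 differences between 0.16 and 0.27. These were median, quantile and hepatocyte scaling, voom, the replicate block, and the runs without 1 of the young controls 1 and 3, the young MANF livers 1, 2 and 4, the old controls 1 to 3 and the old MANF livers 1, 2 and 4. With hepatocyte scaling the adjusted p was at its highest, 0.420, and among the runs that left out 1 library it was at most 0.0877. Serpind1 (log2 0.22, adjusted p = 0.135), Serpinf2 (0.31, adjusted p = 0.229), Klkb1 (0.20, adjusted p = 0.245) and F2 (0.12, adjusted p = 0.323) followed and were not called. Serpinf2 was read at 252, 246, 213 and 252 RPKM in young MANF and at 189, 227, 174 and 244 RPKM in young control livers, which overlapped. The median log2 difference of the 41 genes was 0.07, against -0.03 over all genes tested.

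Whether the plasmid acted differently at the 2 ages was tested with the interaction. In limma 0 of the 41 genes passed, as did 0 of 10677 genes (0.0%), and 0 passed with voom. At an unadjusted p below 0.05 there were 3 of the 41 genes by either method, and 8.37% of all genes tested in limma. Mbl2 had the smallest p. Its difference between MANF and control livers was 0.52 on the log2 scale in old mice and -0.15 in young mice, where it was read at 205, 232, 184 and 216 RPKM in MANF and at 270.5, 258, 181 and 223 RPKM in control livers, an interaction of 0.67 (SE 0.19, unadjusted p = 0.0034, adjusted p = 0.594). In each of the 4 genes with the next smallest p, young MANF replicate 3 was the highest or the lowest of the young MANF livers. C8g was read at 167, 146, 129 and 146 RPKM in old MANF, 160.2, 158, 162 and 164 RPKM in old control, 168, 162, 242 and 151 RPKM in young MANF and 131, 174, 134 and 146 RPKM in young control livers, an interaction of -0.42 (adjusted p = 0.594). Proc, for which old livers were at 217, 212, 179 and 210.0 RPKM under MANF and at 212, 188, 205 and 224 RPKM under the control plasmid, had an interaction of -0.30 (adjusted p = 0.594). Masp1, a protease of the lectin pathway, was read at 19.8, 17.98, 31.5 and 21.1 RPKM in old MANF, 18.01, 20.4, 17.2 and 20.7 RPKM in old control, 15.1, 17.3, 9.18 and 23.0 RPKM in young MANF and 23.4, 16.5, 22.3 and 20.4 RPKM in young control livers, an interaction of 0.61 (adjusted p = 0.603). At either age the MANF and control livers overlapped for C8g and Masp1. Pros1 was read at 14.6, 14.1, 18.6 and 16.5 RPKM in old MANF, 13.3, 13.6, 11.6 and 20.3 RPKM in old control, 11.01, 13.6, 7.18 and 12.8 RPKM in young MANF and 12.3, 17.0, 14.2 and 14.02 RPKM in young control livers, an interaction of 0.52 (adjusted p = 0.603). Without young MANF replicate 3 the interaction was 0.61 for Mbl2, -0.27 for C8g, -0.23 for Proc, 0.38 for Masp1 and 0.33 for Pros1, and none was called. C6 had an interaction of 0.22 (adjusted p = 0.672) and C8b of 0.01 (adjusted p = 0.986), so their difference with age was not shown to depend on the plasmid.

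The remaining genes of the 2 systems were followed as lists. Of 40 other complement genes, 37 were in the table and 26 were tested. With age 1 of the 26 rose in control mice, where 0.899% of all genes tested were called higher. In MANF mice, where 5.85% of all genes tested were called higher, 3 of the 26 rose, and 0 fell in either comparison. Cd55, decay accelerating factor, which protects cells from complement, averaged 3.74 ± 1.117 RPKM in old and 1.32 ± 0.256 RPKM in young control livers, a log2 difference of 1.19 (SE 0.21, adjusted p = 0.0115), a call that hepatocyte scaling alone of the 28 other settings ended (adjusted p = 0.0862). In MANF mice Colec11, a collectin of the lectin pathway, averaged 22.1 ± 2.71 RPKM in old and 13.1 ± 1.57 RPKM in young livers (log2 0.73, adjusted p = 0.0368), and the collectin Colec10 and the integrin gene Itgb2 rose by 0.91 and 1.60 on the log2 scale (adjusted p = 0.0431 and 0.0415). The calls of Colec11, Colec10 and Itgb2 were lost in 10, 18 and 18 of 28 other settings, with adjusted p of at most 0.147. All 3 were lost under median, quantile and hepatocyte scaling and without any 1 of the young MANF livers 1, 2 and 3 or of the old MANF livers 1 and 4. Colec11 was also lost without old MANF replicate 2, Colec10 without any 1 of the young controls 2 and 4, the old controls 2 and 3 and old MANF replicate 3, and Itgb2 without any 1 of the young controls 2, 3 and 4, young MANF replicate 4 and the old MANF livers 2 and 3.

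Of 38 other coagulation and fibrinolysis genes, 27 were tested. In MANF mice 2 of the 27 rose with age, near the background of 5.85% of all genes tested. They were Mug2, a murinoglobulin that traps proteases, and Vkorc1l1, a relative of the vitamin K epoxide reductase, with log2 differences of 0.62 and 0.34 (adjusted p = 0.0435 and 0.0474). Both calls were lost in 20 of 28 other settings, with adjusted p of at most 0.182 for Mug2 and 0.437 for Vkorc1l1. Each was lost under median and quantile scaling and without any 1 of the young controls 2 to 4, the young MANF livers 1 to 3, the old controls 1 to 3 and the old MANF livers 1, 2 and 4. Mug2 was also lost without young control replicate 1 or young MANF replicate 4, and Vkorc1l1 without old MANF replicate 3. The enzymes that vitamin K dependent factors need for their gamma-carboxylation were not called in any comparison. Ggcx, the carboxylase, averaged 10.7 ± 2.06 RPKM in old MANF, 8.01 ± 0.569 RPKM in old control, 8.57 ± 1.13 RPKM in young MANF and 7.78 ± 1.02 RPKM in young control livers, and Vkorc1, the vitamin K epoxide reductase, lay between 3.53 and 3.71 RPKM in the 4 group means. Averaged over both ages, Tfpi2, a Kunitz-type inhibitor of proteases, rose under the MANF plasmid by 0.46 on the log2 scale (adjusted p = 0.0317), with 11 of 27 other settings losing the call (adjusted p of at most 0.148), among them the runs without 1 of the young controls 2 and 3, the young MANF livers 1 and 2, the old controls 1 to 3 and the old MANF livers 2 and 4.

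Of 30 liver transcription factors and cytokine receptors, 29 were tested. Hnf4a and Cebpa, regulators of hepatocyte genes, were not called in any comparison. Hnf4a averaged 96.6 ± 21.0 RPKM in old MANF, 95.5 ± 9.87 RPKM in old control, 84.2 ± 8.84 RPKM in young MANF and 85.9 ± 15.7 RPKM in young control livers, and Cebpa averaged 68.1 ± 2.003, 54.6 ± 6.71, 73.5 ± 13.5 and 60.5 ± 9.40 RPKM in the same groups. With age in MANF mice, 5.85% of all genes tested were called higher. Stat3, the factor that relays interleukin-6, rose there by 0.76 on the log2 scale (adjusted p = 0.0249). Il6st, the shared receptor chain of that cytokine family, rose by 0.58 (adjusted p = 0.0195). Median, quantile and hepatocyte scaling ended both calls. So did leaving out the young MANF liver 1 for both genes, and the young MANF liver 3 or the old MANF livers 3 or 4 for Stat3, with adjusted p over these settings of at most 0.0808 for Stat3 and 0.0879 for Il6st.

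Averaged over both ages, 0.59% of all genes tested were called higher under the MANF plasmid and 0.702% lower. Dbp, a clock-controlled factor that binds D-box elements, rose in that comparison. It was at 29.2 ± 5.50 RPKM in old MANF and 16.8 ± 3.31 RPKM in old control livers, and at 31.2 ± 6.59 RPKM in young MANF and 16.7 ± 3.97 RPKM in young control livers, a log2 difference of 0.83 (adjusted p = 0.0111) that was called in all 27 other settings. Of the 18 acute phase genes, Saa4 fell by 0.55 on the log2 scale averaged over both ages (adjusted p = 0.0174). It was at 90.8 ± 8.44 RPKM in old MANF and 158 ± 43.0 RPKM in old control livers, and at 96.4 ± 7.72 RPKM in young MANF and 123 ± 15.2 RPKM in young control livers, and hepatocyte scaling alone of 27 other settings ended the call (adjusted p = 0.140). Lcn2 rose with age in MANF mice, at 16.1 ± 14.2 RPKM in old and 0.786 ± 0.149 RPKM in young MANF livers (log2 3.37, adjusted p = 0.0409), a call lost in 14 of 28 other settings, among them voom and the runs without young MANF replicate 1, 2 or 3, any 1 of the 4 old MANF livers or young control replicate 4 (adjusted p of at most 0.0908). Lcn2 was the 1 gene of these 18 called higher with age in MANF mice, near the background of 5.85%. Between young MANF and young control livers 0 of the 18 acute phase genes were called, while all 18 had a log2 difference below 0 (median -0.53), against a median of -0.19 for the 5 genes of the fibrinogen group. Over all genes tested in that comparison, the median was -0.10 and 3426 of 10677 were above 0.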

How the data were processed

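RNA was taken from 16 mouse livers in 4 groups of 4 animals, with a stranded mRNA kit per the labels' protocols. The deposited table gives 1 RPKM value per gene and library, computed by the authors. The build mm10 and the tools HTSeq (version not stated) and STAR 2.4.2a are listed, with no role given, per the submitters' processing notes, and the annotation and the strand setting of the counting are not given in the sources used here. Whole reads could be recovered from the RPKM for 100.0% of the 17346 entries with a value above 0, at a tolerance of 0.001 reads, widened to at most 0.2 reads where the printed digits were coarse, and 6664 entries were 0 throughout. The recovered library totals were 18.31 to 26.12 M reads, and 1 RPKM of a gene of 2 kb corresponds to 36.6 to 52.2 reads.

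The main test was limma 3.58.1 in R 4.3.3 on log2(RPKM + 0.5), so fold changes of low genes are understated. It was fitted on all 4 groups with a shared estimate of the spread, over the 10677 genes that reached 0.5 RPKM in 4 libraries or more; 13333 entries were left out. All tests were two-sided, p-values were adjusted over the whole table by Benjamini-Hochberg, and calls were made at 0.05. P-values measure the spread between these animals. The other settings were pseudocounts of 0.1 and 1, other filters, median, quantile and hepatocyte marker scaling, voom on the recovered reads, a replicate block, the groups of a comparison alone, and runs without 1 or 2 libraries. On simulated data for the old against young comparisons, 93% (control) and 94% (MANF) of genes changed by 1 log2 unit were recovered, and 34% and 40% of those changed by 0.5. The simulated spread was independent between genes, without libraries that stood apart. Changes were placed only in genes above a low level, and none between plasmids, so these rates need not hold for the 41 genes.

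The members, marker lists and pathway lists were chosen with earlier results of these data known. Values in every library are given for called members and, where fewer than 5 were called, for those with the 5 smallest p. Of the other lists, the called genes and Hnf4a, Cebpa, Ggcx and Vkorc1 are named. The results of 1 gene of the transcription factor list are not reported here. Positions are from GENCODE M21 (GRCm38) and promoters from RefSeq (GRCm38.p6). C4a, Cfhr3, Itgam and Trbc1 were not analysed here.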

Additional observations from a re-analysis of the deposited data

Results flagged for a closer look

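In each of the 41 genes and 4 groups, the highest and the lowest liver was set against the other 3 with Dixon's criterion for 4 values. Of 164 such groups, 21 held a value that stood apart. For independent groups chance gives about 1 in 20, but these genes moved together in single livers, so the groups are not independent. The share over all genes tested was not computed, so the count is not a result about the 41 genes in particular. Of these 21 values, 9 came from old control replicate 4, 4 from young MANF replicate 3 and 3 from old MANF replicate 3.

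In old control replicate 4 all 9 values were high. Fga was at 1308 RPKM (the other 3 livers at 821 to 873), Fgb at 1048 RPKM (610.2 to 635), Fgg at 1398 RPKM (875 to 914) and C3 at 1390.1 RPKM (789 to 823). Serping1 was at 511 RPKM (259 to 296), C4b at 292 RPKM (159 to 173), C4bp, which codes for an inhibitor of the classical convertase, at 106 RPKM (69.2 to 73.4), Vtn at 869.8 RPKM (640.4 to 652) and F12, the contact factor XII, at 189 RPKM (151 to 155).

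In old MANF replicate 3, C3 was at 2372 RPKM (915 to 1008), Fga at 2129 RPKM (883 to 1045) and Hrg, histidine-rich glycoprotein, at 490.3 RPKM (284 to 314). In young MANF replicate 3, F9 at 43.0 RPKM (59.4 to 62.4) and Serpinf2 at 213 RPKM (246 to 252) were low, whereas Proc at 258 RPKM (211 to 217) and F12 at 209 RPKM (166 to 173) were high.

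The other 5 values came from 5 livers. F9 was at 63.3 RPKM in old MANF replicate 1 (71.8 to 72.9) and Proz at 48.1 RPKM in old MANF replicate 2 (50.4 to 50.8). C2 was at 2.77 RPKM in young control replicate 1 (4.16 to 4.24), F11 at 19.97 RPKM in young control replicate 2 (27.0 to 28.3) and Hc at 158 RPKM in young control replicate 4 (141 to 143).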

How the results depend on the processing

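No called gene of the set changed direction under any setting tried. In control mice the count of genes called with age was 1 in place of 2 under hepatocyte scaling and with the groups of the comparison alone, and 1 to 2 without 1 library, C6 being called in every run. In MANF mice the count with age was 0 in place of 4 under hepatocyte scaling, 5 under median and 5 under quantile scaling, and 2 to 9 without 1 library. It was 9 without old control replicate 4, and 2 (C8b and Kng2) without any 1 of the young MANF livers 1 and 3 and the old MANF livers 3 and 4. For the MANF plasmid in old mice it was 2 in place of 0 without young MANF replicate 3 and old control replicate 4, and 1 without old control replicate 4 and old MANF replicate 3, a run chosen after seeing the data. Averaged over both ages it was 0 in place of 1 under median, quantile and hepatocyte scaling, voom and the replicate block, 2 without young MANF replicate 3 and old control replicate 4, and 0 to 1 without 1 library. For the plasmid in young mice, in old mice and for the interaction it was 0 in all runs without 1 library. The cause of these shifts was not tested.

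With the replicate block the counts were 2 and 3 for age in control and MANF mice and 0 in the other 4 comparisons. Livers of the same number had correlated deviations of -0.32 to 0.21 (median 0.01) over 24 pairs, with 5 above 0.1. In 9 of 48 comparisons a liver correlated best with its own number. Whether livers of the same number shared more than that number was not tested beyond these correlations. Over all genes tested, runs without 1 library called 37 to 211 genes for age in control mice (133 with all), 216 to 1810 in MANF mice (702), 2 to 5 for the plasmid in young mice (2), 2 to 146 in old mice (11), 59 to 174 averaged (138) and 0 to 2 for the interaction (0). Cfb and C2 had the fewest reads of the set. The part of depth, or of the exons they share with Gm20547, in their low counts was not tested.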
